A study of Homo sapiens with 6 samples.

Results

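RNA polymerases I, II and III are the nuclear enzymes that copy DNA into RNA, and the genes of their subunits were followed across 6 Affymetrix arrays. Members were the genes whose symbol in the probe-to-gene table begins with POLR1, POLR2 or POLR3 followed by a capital letter, each represented by its single-symbol probe set with the highest mean signal over the 6 arrays. The rule gave 30 of 18132 genes, with 8 named POLR1, 14 named POLR2 and 8 named POLR3. By the complexes they build, 6 belong to polymerase I only, 9 to polymerase II only, 8 to polymerase III only, 2 to polymerases I and III, and 5 to all 3. The family was picked after POLR1E had been seen among the genes with the smallest p on the lower side of the comparison between the groups. Its values in that comparison, and those of its relatives, are therefore given as a description.

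NCI-H929, a line from a human multiple myeloma, is what the labels name as the cells on every array. The PRMT5_down group (3 arrays) had received a lentivirus directed against PRMT5, which places symmetric dimethyl marks on protein arginines, and the control group (3 arrays) a control lentivirus. The titles call the constructs sponges, while the treatment protocol describes a short hairpin RNA in the pLKO.1 vector, selection with puromycin, and normal NCI-H929 cells as the counterpart. Cells of both groups were collected at the same time. The labels do not state whether replicates are separate cultures or whether the lines are clones, so a p-value here reflects array-to-array spread that may be technical. Each group has replicate numbers 1, 2 and 3. Values are log2 signals, a difference is PRMT5_down minus control in log2 units, and the number of arrays limits the precision of all of them.

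PRMT5 itself had signals of 9.93, 10.35 and 10.30 in control replicates 1, 2 and 3 and of 8.63, 9.65 and 9.37 in PRMT5_down replicates 1, 2 and 3, so the groups did not overlap. The difference was -0.98 (SE 0.28; limma adjusted p = 1, and 0.21 with the replicate block). Array medians lay between 5.29 and 5.32. Background was set for each array at the 95th percentile of 333 olfactory receptor genes, which gave 4.89 to 5.01. The cell type markers did not match the label: 6 of 10 plasma cell markers (IRF4, CD38, TNFRSF17, MZB1, POU2AF1 and SLAMF7) lay under background on all 6 arrays, and 8 of 8 measured erythroid markers lay above it on all 6. The erythroid markers were also higher on average in PRMT5_down, by unequal amounts. All 8 had a positive mean difference, from 0.003 for TAL1 to 1.58 for AHSP, and 0 were called by limma. Of all 18132 genes 7844 were higher. In 6 of the 8 markers every replicate number was higher, beside 11.7% of all genes and 15.6% of those above background on all 6 arrays. The groups did not overlap for 2, ALAS2 and AHSP, where the shares on the higher side were 1.26% and 1.22%. The log2 of the summed signal of the erythroid markers ran from 12.67 to 12.90 in controls and from 13.02 to 13.23 in PRMT5_down. The plasma cell markers summed to 10.53 to 10.79 in controls and 10.30 to 11.03 in PRMT5_down. XBP1, by far the brightest, ran from 10.29 to 10.57 and from 10.02 to 10.88, so the sum mostly reports that gene. Mean differences were lower by small amounts for 10 of 10, the 6 under background included, and XBP1 was higher by 0.36 in number 1. Of all 18132 genes 10057 were lower. The markers above background on all 6 arrays were SDC1, PRDM1, XBP1 and CD79A. The part of either list in the subunit values was not tested, and in such bulk RNA fewer cells of a type and less RNA per cell cannot be told apart.

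Polymerase I transcribes the large ribosomal RNA precursor in the nucleolus, polymerase II makes messenger and many small RNAs, and polymerase III makes transfer RNA, 5S ribosomal RNA and other short RNAs. The enzymes share a core design: a pair of large subunits holds the active site, an assembly platform nucleates them, a stalk binds the emerging RNA, and polymerases I and III carry extra subunits that serve as built-in initiation factors. PRMT5 is known to dimethylate an arginine in the tail of POLR2A, the largest polymerase II subunit, and rapidly growing blood cells, erythroid and malignant alike, are known for heavy use of polymerases I and III.

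RefSeq promoter windows of 300 bases (250 before the start site and 50 after it, GRCh38.p14) were matched by symbol for 22 of the 30 members, with 28 windows in all. They were rich in CG: the median window held 27 CG pairs, with a range of 15 to 47, beside 21 for the windows of all genes on the array and 14 for all promoter windows in the table. The strings searched on both strands were the TATA box string TATAAA, the box string CCAAT, the E-box string CACGTG, the ETS-type string CCGGAAG and the palindromic core of the NRF1 motif, none of which contains another. CCGGAAG stood in 10 of 28 member windows (35.7%), beside 13% of windows of array genes and 10.3% of all windows. The NRF1 core stood in 4 of 28 member windows (14.3%), from 3 genes, beside 1.54% and 1.24%. A pair of overlapping POLR2F windows holds the same NRF1 core and the same CCGGAAG, so both sites enter these window counts once for each window. TATAAA stood in 3.57%, beside 9.17% and 11.5%. CCAAT was held by 21.4%, beside 34.7% and 34.6%, and CACGTG by 10.7%, beside 8.29% and 7.26%. By gene, CCGGAAG was found in 8 of 22 members, among them POLR1B, POLR1C, POLR2C, POLR2D, POLR3A and POLR3C, so it occurs in members of each polymerase. In POLR1C a pair of matches on opposite strands overlaps. The 130 bases before the start site are shown for a core subunit of each polymerase that holds the string and for POLR1F and POLR1H, a pair of polymerase I subunits whose differences had opposite signs in every replicate number. Each line reads 5′ to 3′ on the strand of the gene, capitals mark a match to any of the 5 strings (CTTCCGG is CCGGAAG on the other strand), and a match is a description of letters only.
POLR1B (chr2:112541906-112542035, plus strand): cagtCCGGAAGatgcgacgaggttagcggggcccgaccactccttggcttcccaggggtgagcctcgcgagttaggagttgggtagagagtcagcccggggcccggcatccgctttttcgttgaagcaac
POLR2C (chr16:57462549-57462678, plus strand): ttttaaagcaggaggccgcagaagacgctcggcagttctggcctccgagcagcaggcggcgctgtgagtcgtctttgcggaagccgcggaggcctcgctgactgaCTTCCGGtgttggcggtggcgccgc
POLR3A (chr10:78029516-78029645, minus strand): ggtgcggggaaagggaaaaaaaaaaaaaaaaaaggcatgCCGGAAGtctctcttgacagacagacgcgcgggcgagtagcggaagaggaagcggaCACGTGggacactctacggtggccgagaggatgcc
POLR1F (chr7:19709038-19709167, minus strand): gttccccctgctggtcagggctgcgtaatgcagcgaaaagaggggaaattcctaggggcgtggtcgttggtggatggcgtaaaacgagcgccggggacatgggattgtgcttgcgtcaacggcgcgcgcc
POLR1H (chr6:30061135-30061264, plus strand): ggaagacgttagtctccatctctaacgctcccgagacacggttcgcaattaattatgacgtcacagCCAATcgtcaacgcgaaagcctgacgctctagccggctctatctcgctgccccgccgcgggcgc
The POLR1F stretch holds none of the 5 strings, while POLR1H has a CCAAT box and POLR3A an E-box as well as CCGGAAG.

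No subunit gene passed the comparison of PRMT5_down with control. Over all 18132 genes, limma called 0 of the 30 members at an adjusted p under 0.05, where 0% of all genes were called, and the fit with the replicate number as a block also called 0 of 30 (0% of all genes). At an unadjusted p under 0.05 there were 2 members, POLR1E and POLR1H, or 6.67%, beside 0.822% of all genes, and with the replicate block there were 3, with POLR2K added, or 10%, beside 8.25% of all genes. Among genes above background on all 6 arrays the shares were 7.14% of members and 0.715% of genes, and with the block 10.7% and 10.4%. These counts and shares come from the contrast in which POLR1E had been noticed and nothing is read from them. Differences were small throughout: they ran from -0.33 for POLR1E to 0.23 for POLR2K, 14 members were higher and 16 lower, and the median was -0.01, beside -0.02 for all genes. A mean difference of at least 0.2 in size was seen for 4 members, POLR1D, POLR1E, POLR1H and POLR2K, or 13.3%, beside 12% of all genes; among genes above background on all 6 arrays these shares were 14.3% and 15.4%. With 1 sign in all 3 replicate numbers as well, POLR1E and POLR1H remained on the lower side (6.67%, beside 3.94% of all genes) and POLR2K on the higher side (3.33%, beside 4.36%).

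**Figure D1:**
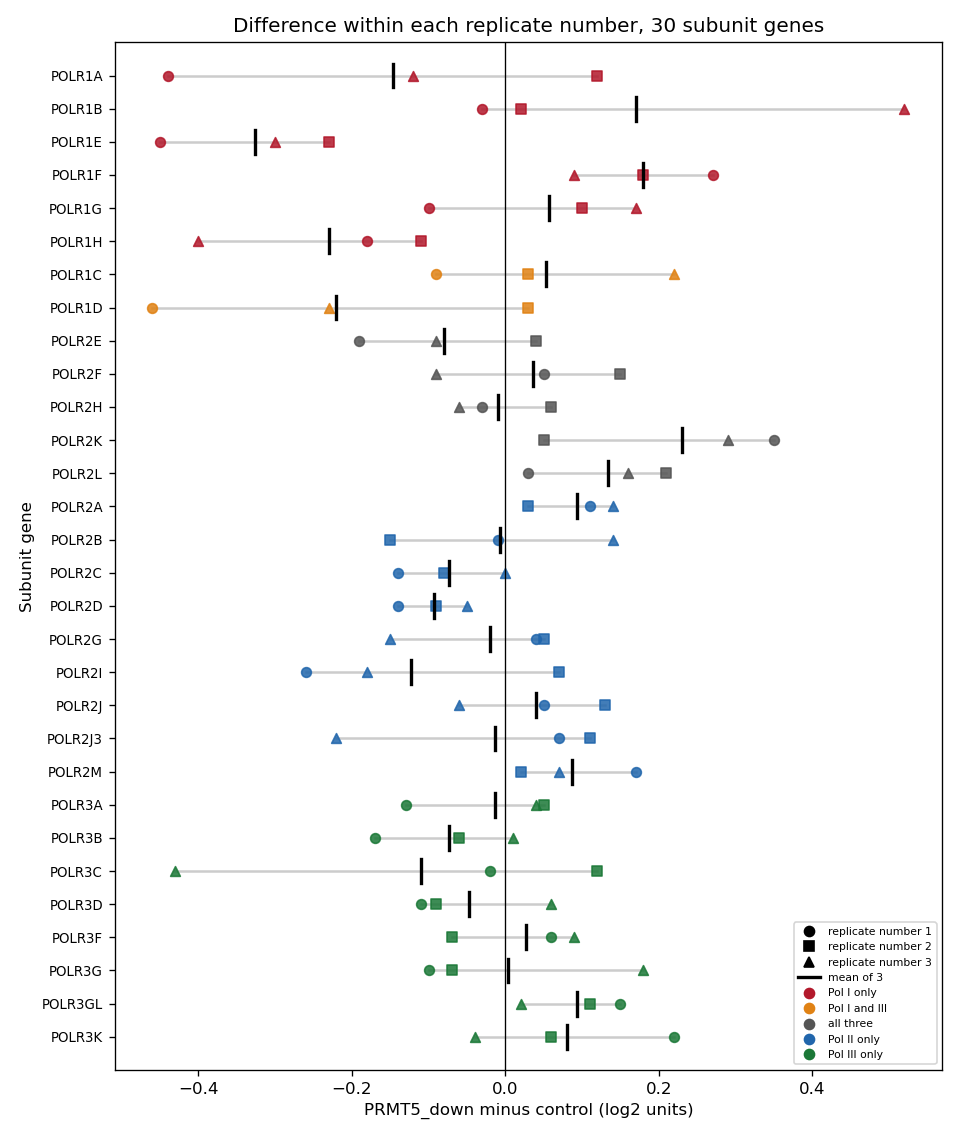
Difference PRMT5_down minus control in log2 units for each of the 30 subunit genes (vertical axis, grouped by complex); symbols are the 3 replicate numbers, the black bar is their mean and the grey line their range. POLR1E lies left of 0 in all 3 numbers at -0.45, -0.23 and -0.30, POLR2K lies right of 0 in all 3, and most other genes straddle 0.

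In 9 of 30 members the sign was the same in every replicate number. Lower in all 3 numbers were 3 members, POLR1E, POLR1H and POLR2D, or 10%, beside 15.2% of all genes. Higher in all 3 were 6 members, POLR1F, POLR2A, POLR2K, POLR2L, POLR2M and POLR3GL, or 20%, beside 11.7% of all genes. Of these 9, the groups did not overlap for POLR1E and POLR1H on the lower side, or 6.67% of members beside 2.66% of all genes. On the higher side they did not overlap for POLR2M, or 3.33% beside 1.26%. POLR2M, however, lay under background on all 6 arrays. Above background on all 6 were 28 members and 10215 genes. Of these, 3 of 28 members (10.7%) were lower in all 3 numbers, beside 1400 of 10215 genes. The share of members on that side was slightly smaller than the share of genes. The members' share rests on 3 genes, so no difference is read from it. Higher in all 3 numbers were 5 of 28 members (17.9%), beside 1593 of 10215 genes (15.6%). Groups that did not overlap on the lower side made up 7.14% of members and 1.31% of genes there, and on the higher side 0% and 1.22%. POLR1E is among the members on the lower side. It was noticed for a small p on that side, so nothing is read from these shares.

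Polymerase I held the widest spread of differences, with 3 of its 6 own subunits higher and 3 lower. Its median was -0.05, and its members ran from -0.33 to 0.18. The low end is POLR1E, which was noticed in this comparison, so the width in part restates that choice. POLR1H came next at -0.23. The median size of a polymerase I difference, sign aside, was 0.18, beside 0.08 for all genes, 0.09 for genes above background on all 6 arrays, 0.07 for polymerase II and 0.06 for polymerase III. By replicate number 1, 2 and 3 the polymerase I median was -0.14, 0.06 and -0.02 (rounded), so it did not keep 1 sign. It was positive without PRMT5_down replicate 1 (0.12) or control replicate 2 (0.03), and it was lower still, at -0.18, without control replicate 1 and, at -0.15, without PRMT5_down replicate 3.

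POLR1E, which encodes the PAF53 subunit of the dimer that helps polymerase I start and elongate, had signals of 8.54, 8.37 and 8.46 in control replicates 1, 2 and 3 and of 8.09, 8.14 and 8.16 in PRMT5_down. Every PRMT5_down array lay below every control array. The control mean was 8.46 ± 0.09 and the PRMT5_down mean 8.13 ± 0.04 (SD, n = 3 each). PRMT5_down thus stood at 79.7% of control, which is -0.33 on the log2 scale with an SE of 0.08. Within replicate numbers 1, 2 and 3 the signal stood at 73.2%, 85.3% and 81.2% of its control, while PRMT5 stood at 40.6%, 61.6% and 52.5%. Whether POLR1E follows PRMT5 was not tested, and POLR1E was picked from this same comparison. POLR1E has 3 probe sets, which may share probes, with mean differences from -0.33 to -0.23, and all 9 of their within-number differences were negative. With 1 array left out at a time its difference stayed between -0.37 and -0.29.

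POLR1G encodes PAF49, the partner of POLR1E in that dimer, and did not show the same values. Its control signals were 7.72, 8.16 and 8.24 and its PRMT5_down signals 7.62, 8.26 and 8.41, a difference of 0.06 (SE 0.25) in which the groups overlapped. The 3 POLR1G probe sets gave mean differences from -0.01 to 0.21, and the sign turned without control replicate 1 (-0.10), PRMT5_down replicate 2 (-0.03) or PRMT5_down replicate 3 (-0.10).

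POLR1H, the small subunit that cleaves RNA in stalled polymerase I, had control signals of 10.67, 10.69 and 10.87 and PRMT5_down signals of 10.49, 10.58 and 10.47. The groups did not overlap, and the means of 10.74 ± 0.11 and 10.51 ± 0.06 (SD, n = 3 each) differed by -0.23 (SE 0.09), or 85.3% of control. A single probe set measures it. Its antisense pseudogene, POLR1HASP, is named only by 2 probe sets that also list another symbol, with mean differences of 0.13 and 0.00.

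POLR1F, the stalk subunit through which polymerase I binds the initiation factor RRN3, went the other way. Control signals were 8.75, 8.40 and 8.65 and PRMT5_down signals 9.02, 8.58 and 8.74. Each PRMT5_down array was above the control of the same number, by 0.27, 0.18 and 0.09, although the groups overlapped, and the mean difference was 0.18 (SE 0.15), or 0.06 without PRMT5_down replicate 1. All 9 within-number differences over its 3 probe sets were positive, with means from 0.16 to 0.21. At 0.18 it lies just under the 0.2 used for members described array by array.

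POLR1A, the largest polymerase I subunit and part of its active site, had control signals of 6.99, 7.60 and 7.47 and PRMT5_down signals of 6.55, 7.72 and 7.35. The arrays numbered 1 were lowest in both groups, and the groups overlapped. Its mean difference was -0.15 (SE 0.33), and it turned to 0.18 without PRMT5_down replicate 1. POLR1B, which completes the active site, had control signals of 7.62, 7.90 and 7.43 and PRMT5_down signals of 7.59, 7.92 and 7.95. Only in number 3 was there a clear gap, at 0.52 beside -0.03 and 0.02, and the mean was 0.17 (SE 0.16). The 6 POLR1B probe sets gave means from 0.08 to 0.17.

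**Figure D2:**
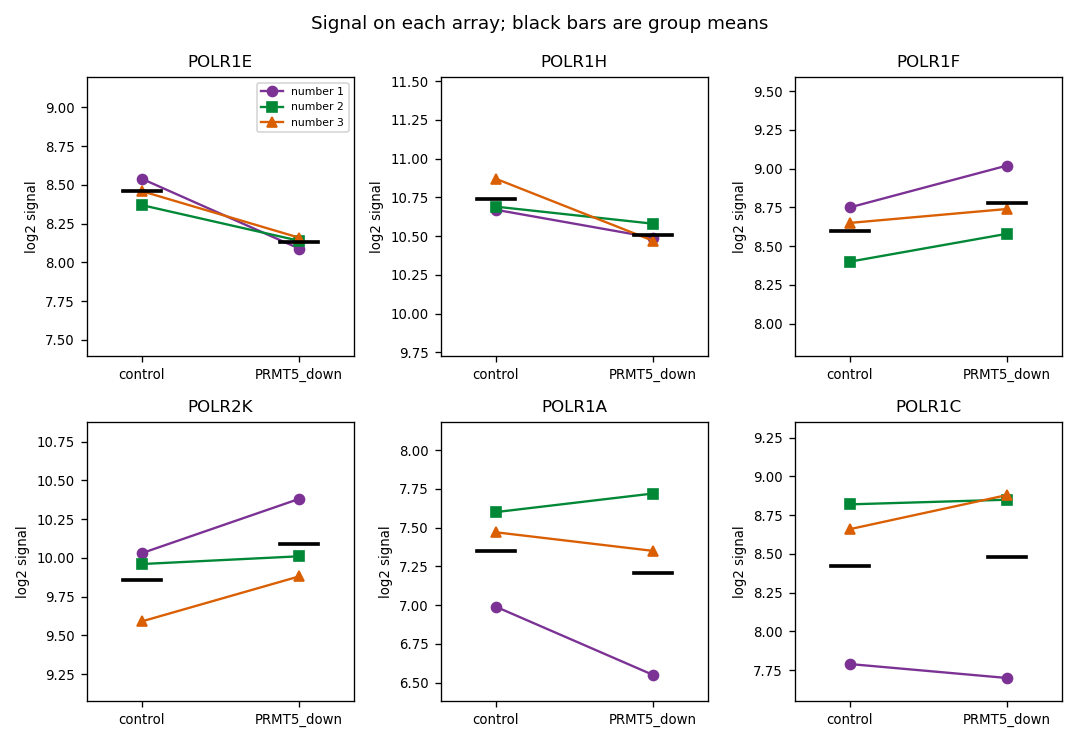
Log2 signal on each array (vertical axis, every panel spanning the same range) in control and PRMT5_down for 6 subunit genes; lines join arrays of the same replicate number and black bars are group means. POLR1E and POLR1H separate the groups, whereas in POLR1A and POLR1C the arrays numbered 1 lie low in both groups.

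POLR1C and POLR1D form the assembly platform that polymerases I and III have in common, and their values did not run together. POLR1C had control signals of 7.79, 8.82 and 8.66 and PRMT5_down signals of 7.70, 8.85 and 8.88, a difference of 0.05 (SE 0.41), with the arrays numbered 1 about a log2 unit below the rest. The sign turned when any of 3 arrays was left out, with a lowest value of -0.26 without control replicate 1. POLR1D had control signals of 9.88, 9.89 and 9.84 and PRMT5_down signals of 9.42, 9.92 and 9.61. Its controls lay close together, and PRMT5_down replicates 1 and 3 fell below them while replicate 2 did not. The mean difference was -0.22 (SE 0.14), or -0.11 without PRMT5_down replicate 1 and -0.36 without PRMT5_down replicate 2. The 3 POLR1D probe sets had means from -0.27 to -0.22, but in number 3 they gave -0.23, 0.13 and -0.01.

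The 5 subunits built into all 3 polymerases had a median difference of 0.04, with 3 higher and 2 lower. POLR2K, the smallest of them, a zinc-binding peptide, had control signals of 10.03, 9.96 and 9.59 and PRMT5_down signals of 10.38, 10.01 and 9.88. Each PRMT5_down array exceeded its control, by 0.35, 0.05 and 0.29, the groups overlapped, and the mean difference was 0.23 (SE 0.18), or 117% of control. It was 0.09 without PRMT5_down replicate 1 and 0.10 without control replicate 3. Another POLR2K probe set gave 0.17 and was lower in number 2, at -0.08. POLR2L, also a small zinc-binding core subunit, was higher by 0.03, 0.21 and 0.16, a mean of 0.13 (SE 0.21), with all 9 differences of its 3 probe sets positive. POLR2E, at the jaw that grips incoming DNA, differed by -0.08 (SE 0.15), POLR2F by 0.04 (SE 0.19) and POLR2H by -0.01 (SE 0.08). These last 3 differed by less than their standard errors, and the sign of each turned with some array left out.

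Polymerase II subunits stayed near 0. The median over the 9 genes was -0.01, the range -0.12 to 0.09, and the medians by number 0.04, 0.03 and -0.05. The polymerase II median turned positive without any 1 control replicate, up to 0.09 without control replicate 2, and without PRMT5_down replicate 1 (0.06). POLR2A, the largest subunit, whose repetitive tail coordinates RNA processing, had control signals of 8.17, 8.30 and 8.18 and PRMT5_down signals of 8.28, 8.33 and 8.32. Each number was higher in PRMT5_down by 0.11, 0.03 and 0.14, with the control of number 2 inside the PRMT5_down range, and the mean was 0.09 (SE 0.08). POLR2A's other 2 probe sets gave -0.03 and 0.12. POLR2B, which completes the active site, had control signals of 10.72, 10.82 and 10.27 and PRMT5_down signals of 10.71, 10.67 and 10.41. Its arrays numbered 3 were lowest in both groups, and the difference was -0.01 (SE 0.17), with a turned sign without control replicate 1 or 2 or PRMT5_down replicate 3.

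The other polymerase II genes gave the following differences. POLR2C, whose product pairs with that of POLR2J in the assembly platform, differed by -0.07 (SE 0.26), and POLR2J by 0.04 (SE 0.11). The stalk subunits POLR2D and POLR2G differed by -0.09 (SE 0.15) and -0.02 (SE 0.11). POLR2D was lower in all 3 numbers, by 0.14, 0.09 and 0.05 log2 units with its brightest probe set, while its other probe set gave a mean of 0.09 in the opposite direction. POLR2I, which serves accuracy and start site choice, differed by -0.12 (SE 0.12), at -0.26, 0.07 and -0.18 by number. The POLR2J copy POLR2J3 differed by -0.01 (SE 0.20). Near-identical copies POLR2J2 and POLR2J4 were named only by probe sets listing several genes, and those naming POLR2J2 gave -0.01, 0.01 and 0.00. Signals of these copies cannot be told apart. POLR2M, which encodes a protein that binds polymerase II and opposes its initiation factor, differed by 0.09 (SE 0.08) under background. Its 6 probe sets shared with GCOM1 were brighter than that, with means from -0.03 to 0.18.

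Among genes with POLR symbols, those of polymerase III ran from -0.11 to 0.09, or to 0.24 with CRCP, a stalk subunit under another symbol. Of the 8 POLR3 genes 4 were higher and 4 lower, with a median of -0.01 (-0.005 before rounding). By number the polymerase III median was -0.06, -0.01 and 0.03. The median turned positive without control replicate 1 (0.08), 2 (0.05) or 3 (0.02) or PRMT5_down replicate 3 (0.04), and it was -0.06 without PRMT5_down replicate 2. POLR3A, the largest subunit, had control signals of 7.05, 7.25 and 7.20 and PRMT5_down signals of 6.92, 7.30 and 7.24. The groups overlapped fully, the difference was -0.01 (SE 0.13), and it turned positive without PRMT5_down replicate 1 (0.10) or control replicate 2 (0.03) or 3. POLR3B, which completes the active site, had control signals of 7.73, 7.06 and 7.41 and PRMT5_down signals of 7.56, 7.0 and 7.42. Here the arrays numbered 2 were lowest in both groups, and the difference was -0.07 (SE 0.22), turning to 0.09 without control replicate 1 or PRMT5_down replicate 2.

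POLR3C, POLR3F and POLR3G or its alternative POLR3GL encode a trimer that opens the promoter. POLR3G, the form known from stem and tumour cells, had control signals of 4.99, 5.00 and 4.02 and PRMT5_down signals of 4.89, 4.93 and 4.20, so it was above background on only 3 arrays and well below it on those numbered 3. Its difference was 0.00 (SE 0.33), and without control replicate 3 it was -0.32. POLR3GL, the widely expressed form, had control signals of 9.29, 9.28 and 9.19 and PRMT5_down signals of 9.44, 9.39 and 9.21, all well above background. It was higher by 0.15, 0.11 and 0.02, a mean of 0.09 (SE 0.09), with overlapping groups. POLR3C differed by -0.11 (SE 0.15), a value set by number 3, where it was -0.43 beside -0.02 and 0.12, and all 3 POLR3C probe sets were lower on average, from -0.16 to -0.11. POLR3F differed by 0.03 (SE 0.16).

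The remaining polymerase III members were POLR3D, of the dimer that helps the enzyme stop and restart, at -0.05 (SE 0.20), and POLR3K, the RNA-cleaving subunit, at 0.08 (SE 0.12). POLR3E, the partner of POLR3D, is measured by a probe set that lists its symbol under 2 gene identifiers and was kept apart. It had control signals of 8.55, 8.84 and 9.12 and PRMT5_down signals of 8.23, 8.81 and 9.15, a mean difference of -0.11. CRCP had control signals of 7.44, 7.61 and 7.48 and PRMT5_down signals of 7.86, 7.80 and 7.59. CRCP was higher in each number, by 0.42, 0.19 and 0.11, and only PRMT5_down replicate 3 lay within the control range. Its mean difference was 0.24 (SE 0.11), and it did not pass over all genes (limma adjusted p = 1).

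**Figure D3:**
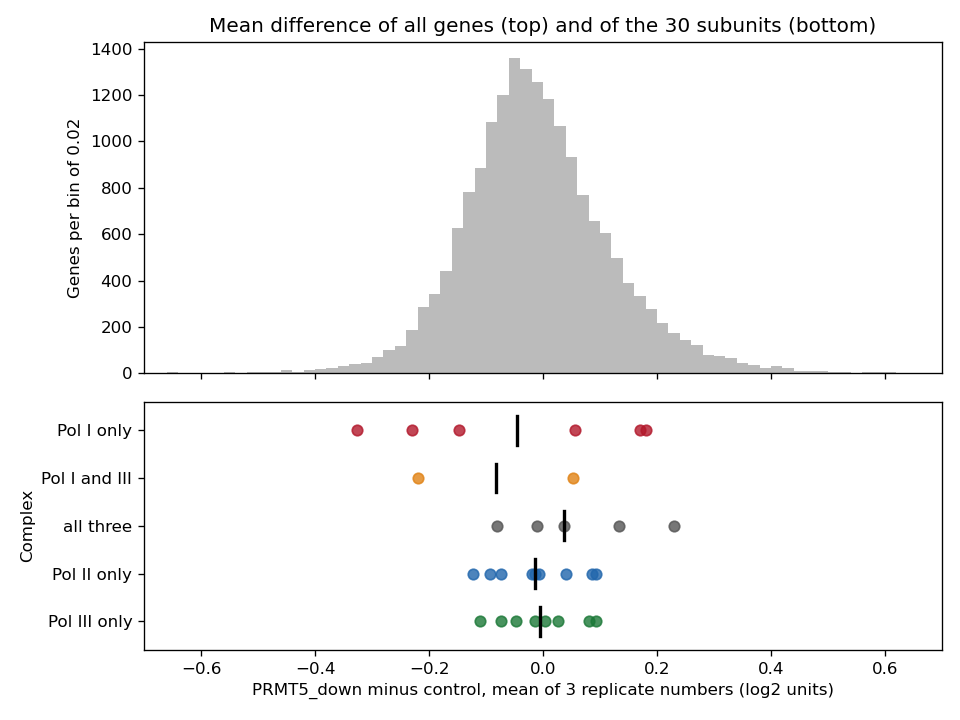
Top, number of genes per bin of 0.02 log2 units of mean difference PRMT5_down minus control, with 21 of 18132 genes outside 0.7 on either side not drawn; bottom, the 30 subunit genes by complex on the same axis, with black bars at the medians. Medians of all complexes lie near 0. The polymerase I genes reach from -0.33, which is POLR1E, the gene noticed beforehand, to 0.18. The POLR genes of polymerases II and III alone stay within -0.12 to 0.09.

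Subunit levels were next compared between replicate numbers. The spread of POLR1E between numbers entered the p for which it was noticed, so its values here are a description. The median range between the number means was 0.37 log2 units over the members, beside 0.28 for all genes and 0.45 for the 10215 genes above background on all 6 arrays. In the limma fit with group and number, the F test for the number called 16 of 30 members (53.3%) at an adjusted p under 0.05, beside 35.1% of all genes. That order depends on dim genes, which were called less often. Among genes above background on all 6 arrays, 54.9% were called beside 15 of 28 members (53.6%), and in a fit without the dimmest 50% of genes 64.8% beside 53.6%. The members were therefore not called more often than other bright genes. The calls were 3 of 6 for polymerase I, 1 of 2 for the platform common to polymerases I and III, 4 of 5 for the subunits of all 3 enzymes, 4 of 9 for polymerase II and 4 of 8 for polymerase III. The mean of the 2 arrays of a number was lowest in number 1 for 9 of the 16 called members, in number 2 for 2 and in number 3 for 5. With any 1 array left out 0 members and 0 genes were called. Such a fit keeps a single residual degree of freedom and 1 array of that number, and why the calls fell away was not tested. In these fits 9 to 16 members had an unadjusted p under 0.05 by the limma F test, against 17 with all arrays, the 9 being without PRMT5_down replicate 1. What a replicate number shares is not given in the labels.

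The widest range between numbers was that of POLR1C, whose number means were 7.75, 8.84 and 8.77 (rounded), a range of 1.09 log2 units (limma F test adjusted p = 0.00089). POLR1A followed with 6.77, 7.66 and 7.41 (range 0.89, limma F test adjusted p = 0.0046), low in number 1 as well. POLR1G, at 7.67, 8.21 and 8.32, had the same low number (range 0.66, limma F test adjusted p = 0.005). POLR3G was instead low in number 3, with means of 4.94, 4.96 and 4.11 (range 0.86, limma F test adjusted p = 0.0017), from signals near or under background. POLR2C was high in number 2, with 8.94, 9.65 and 9.07 (range 0.71, limma F test adjusted p = 0.0027), and POLR3B low there, with 7.64, 7.03 and 7.42 (range 0.61, limma F test adjusted p = 0.0062). The polymerase III members POLR3G and POLR3B thus differed in which number stood apart, while POLR1A, POLR1C and POLR1G were all low in number 1. The 6 genes of this paragraph were chosen after their values were seen, as those with the widest ranges.

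At the other end, POLR1E, POLR1H, POLR2A, POLR2H and POLR2M had number means within 0.06, 0.09, 0.09, 0.08 and 0.05 of each other. The range between numbers exceeded the size of the group difference in 26 of 30 members (86.7%), beside 89.2% of all genes. The 4 exceptions were POLR1E, POLR1H, POLR2A and POLR2M, of which POLR1E restates the choice, since a small p needs a small spread. In the planned comparison the spread between numbers enters the standard error, which was 0.08 for POLR1E and 0.41 for POLR1C. With the replicate number as a block the standard errors were 0.08 and 0.09, and the limma adjusted p was 0.52 for POLR1E and 0.88 for POLR1C.

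**Figure D4:**
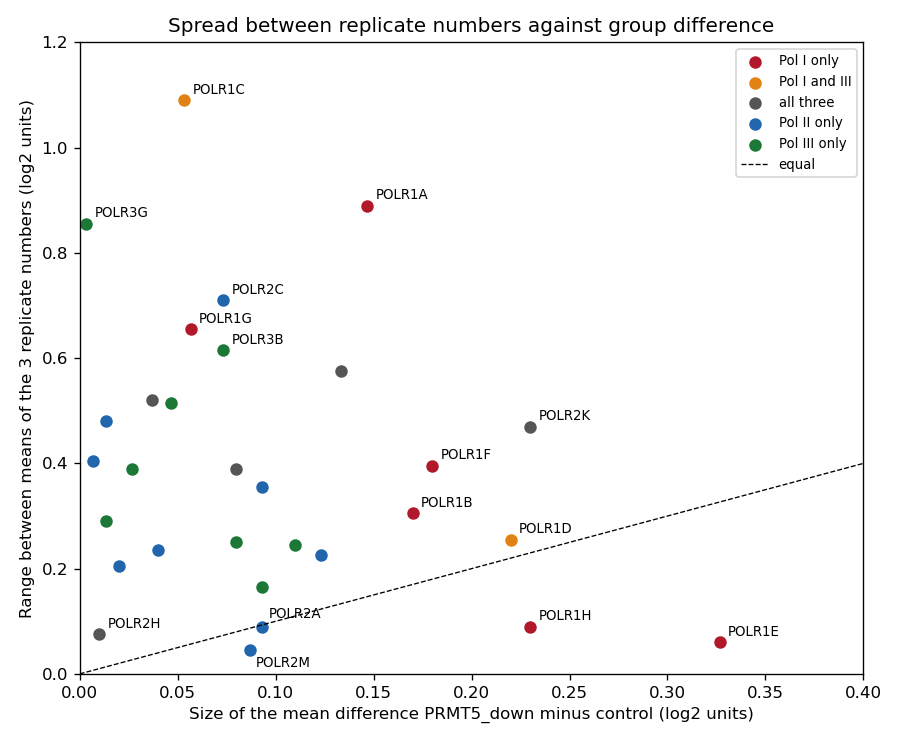
Range between the means of the 3 replicate numbers (vertical axis, log2 units) against the size of the mean difference between the groups (horizontal axis, log2 units) for the 30 subunit genes, coloured by complex; the dashed line marks equal values. POLR1C, POLR1A and POLR3G lie highest, and POLR1E and POLR1H lie low and far right, under the line.

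Factors that work with the polymerases did not pass the comparison of the groups either. Of 9 polymerase I initiation genes 6 were higher and 3 lower, with a median of 0.16 and 0 called. RRN3, which carries the growth signal to polymerase I, had control signals of 7.86, 7.62 and 7.11 and PRMT5_down signals of 8.52, 7.60 and 7.69, with a difference of 0.41 (SE 0.31). It was 0.12 without PRMT5_down replicate 1 and 0.20 without control replicate 3, and a mean over the 3 RRN3 probe sets gave 0.26. With the replicate block the SE for RRN3 was 0.13 (limma adjusted p = 0.56). UBTF, the architectural factor of ribosomal DNA, differed by 0.20 (SE 0.25), positive in all 3 numbers, and TAF1A, of the promoter selectivity factor, by 0.20 (SE 0.18). RRN3 and TAF1A were positive in numbers 1 and 3 only, and the groups overlapped for all 3 genes.

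Of 18 measured general initiation factors of polymerase II 13 were higher and 5 lower, with a median of 0.05 and 0 called. The values furthest from 0 were a pair of TFIIH genes with opposite signs. GTF2H1, a TFIIH core subunit, had control signals of 7.92, 7.97 and 7.48 and PRMT5_down signals of 8.78, 8.13 and 8.29, without overlap and with a difference of 0.61 (SE 0.22). A mean over its 8 probe sets gave 0.41. ERCC2, a TFIIH helicase, had control signals of 7.56, 7.73 and 8.43 and PRMT5_down signals of 6.78, 7.55 and 7.59, with overlap and a difference of -0.60 (SE 0.31), which was -0.34 without either PRMT5_down replicate 1 or control replicate 3. GTF2H4, under background on all 6 arrays, differed by -0.19 (SE 0.14). Neither TFIIH gene passed over all genes (limma adjusted p = 1 for each). With the replicate block the SE was 0.14 for GTF2H1 and 0.13 for ERCC2, and the limma adjusted p was 0.47 and 0.46.

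Among 19 measured elongation factors of polymerase II 14 were higher and 5 lower, with a median of 0.04 and 0 called. CCNT1, the cyclin of the kinase that releases paused polymerase II, had control signals of 6.78, 6.73 and 6.40 and PRMT5_down signals of 7.25, 7.0 and 6.95, without overlap and with a difference of 0.43 (SE 0.14). NELFCD, of the pausing complex, differed by 0.14 (SE 0.10) and ELOA, an elongation factor, by -0.14 (SE 0.10).

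The 16 polymerase III initiation genes had 5 higher, 10 lower and 1 at exactly 0, a median of -0.06 and 0 called, with GTF3C5 at -0.12 (SE 0.15), BRF1 at -0.11 (SE 0.15) and SNAPC5 at -0.06 (SE 0.11). Of 14 genes for assembly of the polymerases 6 were higher and 8 lower, with a median of -0.03 and 0 called. PIH1D1, of the chaperone complex that assembles polymerases, had control signals of 9.78, 9.45 and 10.10 and PRMT5_down signals of 9.53, 9.42 and 9.36, with a difference of -0.34 (SE 0.17), or -0.18 without control replicate 3. A mean over its 4 probe sets gave -0.24. UXT differed by -0.12 (SE 0.10) and PFDN6 by 0.10 (SE 0.14). The separate polymerase of mitochondria and its factors, 5 genes, had 4 higher, a median of 0.18 and 0 called, with TFAM, which packages mitochondrial DNA, at 0.28 (SE 0.26), TEFM at 0.13 (SE 0.13) and TFB2M at 0.21 (SE 0.28). At an unadjusted limma p under 0.05 these 6 lists held 2 of 81 genes, GTF2H1 and CCNT1, or 2.47% beside 0.822% of all genes. With the replicate block they held 8 of 81, or 9.88% beside 8.25%. Of the 81 genes 79 lay above background on all 6 arrays. Among all genes above background there the shares were 0.715% without the block and 10.4% with it.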

How the data were processed

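RNA of 6 samples was hybridised to 1 Affymetrix array each, 3 per group. Per the submitters' processing notes, the authors deposited RMA values, which are log2 signals of each probe set. Which RMA software and chip definition they used is not given in the sources used here. Because the method evens out the arrays' distributions, a shift shared by most genes would not show. Of 49372 probe sets, 44994 had 1 gene symbol, 1832 several and 2473 none, and 79 were controls, 6 of which also had 1 symbol and were kept; symbols were updated through gene identifiers for 44967.

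Groups were compared over 18132 genes by lmFit and eBayes of limma (version 3.58.1, R 4.3.3, Benjamini-Hochberg adjustment, threshold 0.05), with no filter on dim genes. The calculations were tested on simulated data with known changes. There the fit without the block recovered 0% of changes of 0.5 log2 units and 56% of 1, and the block fit 88% and 100%. Member differences were all under 0.5 in size, so a count of 0 called does not show that members were unchanged. False calls in the simulation were 0 of 125 without the block, 17 of 211 with it and 31 of 222 in the F test between numbers. Deviations from group means correlated between arrays of the same number at r = 0.82, 0.72 and 0.79, above the minimum of 0.1, which was read as pairing by number; the labels state none. Standard errors given without mention of the block come from the fit without it, where the spread between numbers enters. Members, complexes and gene lists were chosen with earlier results of these data known. Values by array are given for PRMT5, the large subunits, members with 1 sign in all 3 numbers and a mean of at least 0.2, POLR3G and POLR3GL, and others chosen after their values were seen; each list names the 3 genes with the smallest p. The F test between numbers was added after the data were seen. Older symbols for POLR1F, POLR1G and POLR1H were already updated in the table.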

Additional observations from a re-analysis of the deposited data

How the results depend on the processing

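The count of 0 called members held under every alternative run: the replicate block, the lowest 50% of genes left out, the most variable probe set or a mean over a gene's probe sets, quantile normalization again, trend and robust, each array left out in turn and the replicate block with trend and robust, which was added after seeing the data. Under that last setting limma called 3 genes, none a member, and PRMT5 passed (difference -0.98, limma adjusted p = 0.029). The replicate block alone changed no call, and with it PRMT5 stayed at -0.98. With 1 array left out, PRMT5 ran from -1.19 to -0.68. With 1 array left out, the medians ran from -0.18 to 0.12 for polymerase I (lowest without control replicate 1, highest without PRMT5_down replicate 1), from -0.055 to 0.090 for polymerase II and from -0.057 to 0.075 for polymerase III. The F test between numbers then called 0 to 0 genes and 0 to 0 members. Of the 30 members, 20 turned sign with some array left out, 5 with another probe set rule, and 10 under no alternative, POLR1E and POLR1H among them; none was called where it turned. Ranges with 1 array left out were, for genes that turned, PFDN6 -0.0050 to 0.20, POLR1A -0.40 to 0.18, POLR1C -0.26 to 0.44, POLR1G -0.10 to 0.29, POLR2B -0.17 to 0.10, POLR2C -0.29 to 0.14, POLR2D -0.19 to 0.027, POLR2E -0.17 to 0.053, POLR2F -0.14 to 0.15, POLR2G -0.10 to 0.043, POLR2H -0.040 to 0.020, POLR2J -0.055 to 0.11, POLR2J3 -0.19 to 0.12, POLR2L -0.0083 to 0.33, POLR3A -0.087 to 0.10, POLR3B -0.24 to 0.092, POLR3C -0.20 to 0.045, POLR3D -0.19 to 0.13, POLR3F -0.11 to 0.13, POLR3G -0.32 to 0.24, POLR3K -0.022 to 0.17, SNAPC5 -0.12 to 0.012, TFB2M -0.057 to 0.44 and UBTF -0.033 to 0.38. Those that kept their sign but moved by over 1.5 times were POLR1B 0.060 to 0.29, POLR1D -0.10 to -0.35, POLR1F 0.060 to 0.28, POLR2I -0.035 to -0.21, POLR2K 0.085 to 0.34, POLR2M 0.055 to 0.12, POLR3GL 0.047 to 0.16, TFAM 0.060 to 0.48, TEFM 0.032 to 0.23, RRN3 0.12 to 0.57, TAF1A 0.015 to 0.30, NELFCD 0.090 to 0.21, ELOA -0.070 to -0.20, ERCC2 -0.34 to -0.77, GTF2H4 -0.093 to -0.30, GTF3C5 -0.0083 to -0.23, BRF1 -0.0033 to -0.23, PIH1D1 -0.18 to -0.50 and UXT -0.060 to -0.17. Other choices turned POLR1G -0.010 (most variable probe set), POLR2D 0.087 (most variable probe set), POLR2F -0.022 (mean of probe sets), POLR3A 0.0089 (mean of probe sets), POLR3F -0.010 (most variable probe set) and UBTF -0.027 (mean of probe sets). POLR2M and POLR3G fall under the filter on dim genes and gave no value there. Adding the subunits listed under other symbols changes only polymerase III, as CRCP is the single such gene. The 3 arrays per group and, for POLR2M and POLR3G, a signal at or under background limit what these arrays can show.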
